A study of Mus musculus with 7 samples.

Results

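The 9 genes described here, Sis, Lct, Treh, Anpep, Enpep, Mme, Alpi, Vil1 and Slc5a1, encode enzymes, a sugar transporter and a structural protein of the intestinal brush border. Open chromatin at them was taken from peaks of ATAC-seq, in which a transposase inserts sequencing adapters where DNA is accessible. A peak was counted for a gene if its summit lay in the gene body, or if that gene was the nearest protein-coding gene within 50 kb. Overlapping peaks of all libraries were merged into 103809 regions, of which 69 belonged to the 9 genes. These held between 38 peaks (Allo 1) and 60 peaks (Syn 3) per library, out of lists of 62977 to 88861 peaks.

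All libraries came from intestine of female mice of 8 to 12 weeks, strain B6-GFP-Lgr5, that had been lethally irradiated and given a bone marrow transplant. The Syn group (3 libraries) had syngeneic transplants, and the Allo group (4 libraries) had BALB/c marrow, which is mismatched to the host and was used to study graft-versus-host disease. Cells positive for the Lgr5-GFP reporter were sorted at day 7, 50000 cells per library, from pools of 3 to 4 mice, so each value averages over several animals. No unirradiated group was analysed here, so both groups share the irradiation and the transplant. In such bulk libraries, opening of a site in fewer cells and less opening per cell cannot be told apart.

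The brush border is the layer of microvilli on absorptive enterocytes, where anchored enzymes finish the digestion of sugars and peptides and transporters take up the products. Lgr5-positive cells at the crypt base are the stem cells from which enterocytes descend, and most of these genes are known to be expressed more strongly after cells leave the crypt. HNF1, HNF4, CDX and GATA factors are known regulators of this gene programme in the intestine.

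The lists held 71925 to 76438 peaks in Syn and 62977 to 88861 in Allo. Sequencing depth is unknown from such lists. Peaks of Allo 1 and 2 carry names of 1 scheme, and those of Allo 3 and 4 names of another. Values with either pair alone are given for starts, best ranked regions and shared regions without group overlap, where the call or direction then differs. For other sites described below, such as Treh at 12.3 kb and Mme at 89.1 kb, they are not given. Of the markers of the sorted cells, Olfm4, Ascl2 and Epcam had an open start in all 7 libraries, and Lgr5 had 6 to 12 peaks per library. Muc2, Chga, Lyz1 and Dclk1, which mark other epithelial cells, were also open at their starts in all 7. The start of Dclk1, a tuft cell marker, stood at rank percentiles of 5.57 to 38.2 in Syn and 43.7 to 76.5 in Allo. Allo also stood higher without overlap at Ascl2 (75.5 to 81.2 and 84.3 to 87.6) and Epcam (72.3 to 77.6 and 78.2 to 83.2). Olfm4 stood lower in Allo without overlap (82.0 to 83.7 and 71.6 to 78.6). At Lyz1, Muc2 and Chga the groups overlapped. Of all shared regions, 8.06% stood higher and 6.58% lower without overlap. The part of tuft cells or other cell types in the results below was not tested. Among leukocyte markers, the starts of Cd3e and Itgam were open in 0 libraries and that of Ptprc in 1 (Allo 3). Peaks were nonetheless assigned to them, 6 to 11 per library at Itgam, 1 to 5 at Ptprc and 1 at Cd3e. The stromal and endothelial genes Col1a1 and Pecam1 had 3 to 7 and 11 to 15 peaks.

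The level of a site is given as its rank percentile, the position of its best peak among all peaks of the same library by the authors' −log10 q, from 0 for the weakest to 100 for the strongest. Ranks depend on what else a list holds, so a difference in rank is not a change in signal. A site in a region shared by all 7 libraries was compared by limma across 50324 such regions, with Benjamini-Hochberg adjustment at 0.05, and p-values reflect the spread between these pooled libraries. With Allo 3 and 4 alone against Syn, limma called 8.68% of all regions tested higher and 3.46% lower. With Allo 1 and 2 alone it called 0% in either direction. Whether the pairs differ at a named site was not tested. Distances in kb run from the transcription start, negative for upstream.

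Of the 9 genes, 8 had a peak within 1 kb of the start in all 7 libraries, against 62.2% of 17273 genes with a listed start. The median rank percentile of those 8 starts was 71.4, below the 89.7 of all open starts and the 80.4 of 24 starts of other brush border genes. Only Lct had no open start in any library.

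**Figure D1:**
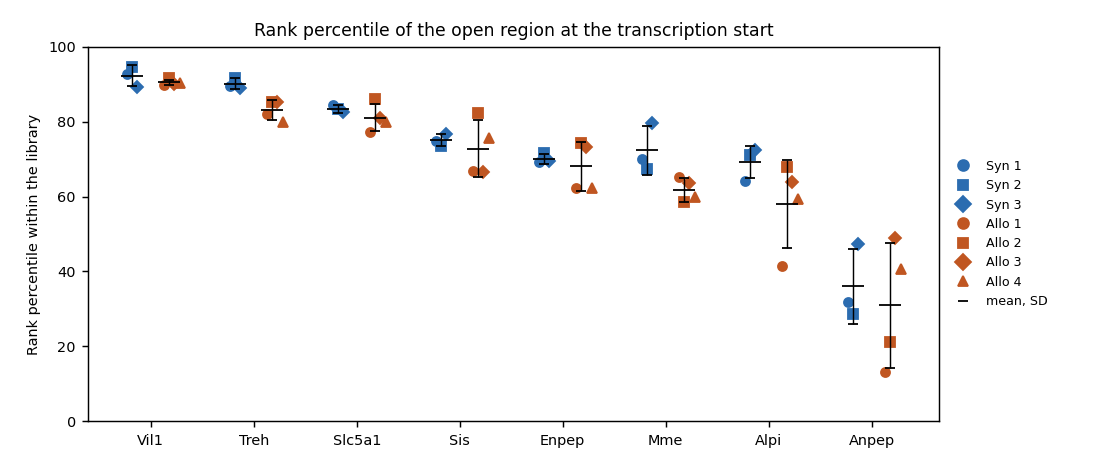
Rank percentile of the peak at the transcription start (vertical axis, 0 to 100) for the 8 genes with an open start, one point per library, with the mean and SD of each group as bars. Vil1 stands highest and Anpep lowest, and only at Treh and Mme do the groups not overlap.

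The disaccharidases come first. Sis encodes sucrase-isomaltase, which splits sucrose and the branched products of starch, Lct encodes lactase, and Treh encodes trehalase, which splits the sugar trehalose. Alpi encodes intestinal alkaline phosphatase. Their 250 bases before the start are shown because Sis, Treh and Alpi were open there and Lct was not. The sequences are from RefSeq, build GRCm38.p6, at chr3:72967864-72968113 for Sis (minus strand), chr1:128328319-128328568 for Lct (minus strand), chr9:44672983-44673232 for Treh (plus strand) and chr1:87101607-87101856 for Alpi (minus strand). Capitals mark matches to the searched motifs on either strand.
Sis: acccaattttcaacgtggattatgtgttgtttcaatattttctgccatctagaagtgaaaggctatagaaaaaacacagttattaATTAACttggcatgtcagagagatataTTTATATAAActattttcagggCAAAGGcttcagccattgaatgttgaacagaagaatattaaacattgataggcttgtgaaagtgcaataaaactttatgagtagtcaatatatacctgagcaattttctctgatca
Lct: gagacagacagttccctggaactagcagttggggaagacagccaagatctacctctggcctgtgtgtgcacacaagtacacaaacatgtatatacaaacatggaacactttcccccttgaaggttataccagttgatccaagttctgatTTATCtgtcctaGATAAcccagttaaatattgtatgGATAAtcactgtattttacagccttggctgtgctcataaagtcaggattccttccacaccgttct
Treh: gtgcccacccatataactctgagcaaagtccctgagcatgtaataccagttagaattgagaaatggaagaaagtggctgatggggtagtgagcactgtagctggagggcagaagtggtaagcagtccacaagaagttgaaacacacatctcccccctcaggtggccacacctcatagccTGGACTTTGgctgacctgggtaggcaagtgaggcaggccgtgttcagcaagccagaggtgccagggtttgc
Alpi: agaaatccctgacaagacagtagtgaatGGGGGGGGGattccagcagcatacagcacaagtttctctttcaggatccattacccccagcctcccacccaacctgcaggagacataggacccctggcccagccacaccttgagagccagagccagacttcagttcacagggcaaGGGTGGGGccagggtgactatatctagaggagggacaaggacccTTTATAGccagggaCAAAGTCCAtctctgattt
The HNF1 motif searched was GTTAAT. For CDX factors the letters TTTATGG or else TTTATAG were used, and for GATA factors GATAA. The HNF4 motifs were CAAAGTCCA or its shorter relative CAAAGG. For KLF/SP factors GGGNGGGG was used, and the TATA box was searched as TATAAA. Each was searched on both strands in windows of 300 bases that run from 250 before to 50 after the start. The letters CAAAGTCCA occur in 0.478% of 32619 windows and were found at Treh, from position -71 to -63, and at Alpi, from -19 to -11. GTTAAT occurs in 7.10% of windows and was found only at Sis among the 9 genes, from -165 to -160. The Sis window also holds CAAAGG (20.3% of windows) and TATAAA (13.7%), the latter on both strands with overlap. Lct holds GATAA (25.4% of windows) 3 times, from -101 to -61. TTTATAG (3.65% of windows) was found at Alpi, where it overlaps TATAAA on the other strand, and TTTATGG (2.76%) at none of the 9. GGGNGGGG (33.5%) was found at 6 genes, and not at Sis, Lct or Treh. A match describes letters in this window and no more. Sites of these factors with other letters were not searched, so a missing match does not show a missing site.

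The start region of Sis (chr3:72967704-72968129) had rank percentiles of 74.8, 73.6 and 76.7 in Syn 1 to 3, and of 66.9, 82.2, 66.6 and 75.6 in Allo 1 to 4. The Allo values lay on both sides of the Syn values (limma adjusted p = 0.867). Treh (chr9:44672823-44673692) stood at 89.5, 91.8 and 89.0 in Syn and at 82.1, 85.2, 85.3 and 79.9 in Allo. Every Allo library was below every Syn library, by 7.0 ± 1.95 points in the mean (SE), and the limma adjusted p was 0.121. With Allo 3 and 4 alone the limma adjusted p was 0.0316, and with Allo 1 and 2 alone 0.174. Ranked by fold, the difference was -2.52 points (limma adjusted p = 0.805). The same region also holds the start of BC049987, so its opening cannot be assigned to Treh alone. The start of Alpi (chr1:87101391-87102049) stood at 64.3, 71.0 and 72.5 in Syn and at 41.4, 67.8, 63.9 and 59.3 in Allo. Its groups overlapped (limma adjusted p = 0.456). Mouse Alpi has a close copy, Akp3, and the sources used here do not give how reads matching both were treated.

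For Lct, the 69 regions hold a single one, inside the gene at 4.87 kb (chr1:128323318-128323796). It had a peak in Syn 3 at rank percentile 1.73 and in Allo 2 at 5.48, near the bottom of both lists. In the other libraries no peak was listed, which does not show that the gene is closed.

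The peptidases include Anpep (aminopeptidase N), Enpep (glutamyl aminopeptidase) and Mme (neprilysin), which trim peptides at the cell surface. The start of Anpep (chr7:79847435-79848419) stood lowest, at 32.0, 28.5 and 47.4 in Syn and 13.0, 21.2, 48.9 and 40.7 in Allo. Only 2.52% of all open starts stood lower. The start of Enpep (chr3:129332179-129333188) stood at 69.2, 71.6 and 69.5 in Syn and 62.4, 74.2, 73.3 and 62.3 in Allo. At the Anpep start the difference was 8.85 points with Allo 3 and 4 alone and -18.9 with Allo 1 and 2 alone. Both of these starts had overlapping groups, with limma adjusted p-values of 0.86 for Anpep and 0.893 for Enpep. The start of Mme (chr3:63295260-63296256), a gene with 3 listed starts, stood at 70.0, 67.2 and 79.8 in Syn and 65.1, 58.5, 63.8 and 59.9 in Allo. Every Allo library was lower here, by 10.5 ± 5.18 points in the mean (SE), with a limma adjusted p of 0.355. When peaks were ranked by the authors' fold over background in place of −log10 q, the direction at the Mme start turned, to 0.192 points higher in Allo. A second region near the Mme starts, at -0.694 kb (chr3:63294411-63294678), stood at 13.6, 31.4 and 25.2 in Syn. In Allo it was listed in Allo 2 alone, at 25.1.

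Vil1 encodes villin, which bundles the actin filaments of microvilli, and Slc5a1 encodes SGLT1, the sodium-coupled transporter that takes up glucose and galactose. The start of Vil1 (chr1:74408217-74409609) had the highest rank of the 9, at 92.8, 94.7 and 89.3 in Syn and 89.8, 91.6, 90.2 and 90.4 in Allo. The start of Slc5a1 (chr5:33103872-33105532) stood at 84.5, 83.3 and 82.5 in Syn and 77.4, 85.9, 81.0 and 79.8 in Allo. Both genes were open at the start in every library, and their groups overlapped (limma adjusted p = 0.578 and 0.717). In order of mean rank the starts ran Vil1, Treh, Slc5a1, Sis, Enpep, Mme, Alpi and Anpep, and over the 7 libraries the range of each overlapped that of the next.

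Away from the starts, 35 of the 69 regions lay in gene bodies and 24 outside them. The tables used hold no exons, so introns and exons are not separated. Of the 69, 34 (49.3%) were open in all 7 libraries, against 48.5% of all regions. Between the groups, 0 of the 69 were open in every Allo and no Syn library, a pattern shown by 1.14% of all regions. The reverse pattern was shown by 1 of the 69 and by 1.01% of all regions. That region lies in Mme at 6.19 kb (chr3:63302142-63302541), and its peaks stood low in the lists, from 4.15 in Syn 1 to 15.5 in Syn 2.

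**Figure D2:**
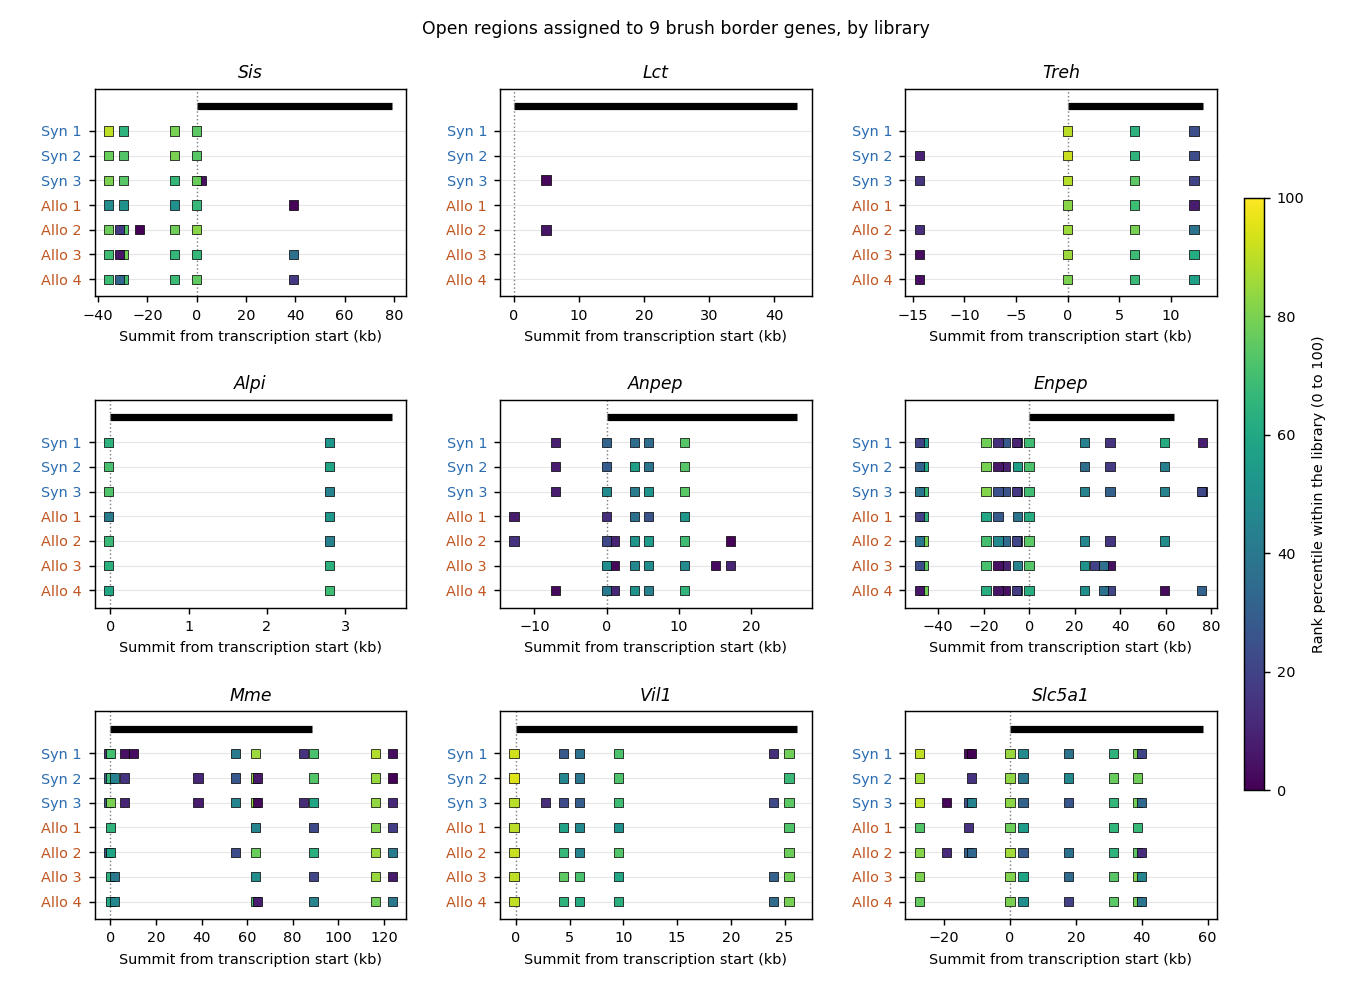
Regions of each of the 9 genes by distance of the summit from the transcription start (horizontal axis, kb), one row per library, coloured by rank percentile (0 to 100), with the gene body as a black bar. Lct has 1 region, open in Syn 3 and Allo 2, and Mme has sites inside the gene that are listed only in Syn libraries.

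Several sites, chosen after their values were seen except for that at Anpep, also differed in which libraries held them. In the Mme gene body, the sites at 38.4 kb, 84.6 kb and 10.3 kb were listed in some Syn libraries and in 0 Allo libraries, and that at 54.8 kb stood at 41.6, 27.0 and 45.5 in Syn and was listed in Allo 2 alone, at 22.9. At Sis, the site at 39.2 kb was listed in Allo 1, 3 and 4, at 1.04, 37.0 and 16.1, and one upstream at -31.5 kb in Allo 2, 3 and 4, at 16.6, 5.41 and 33.1. Anpep had a small second region near the start, at 1.03 kb, in Allo 2, 3 and 4 at 9.58, 1.59 and 10.6. Of all these values, the highest was 45.5. Counted over the 69, 23 regions were held by a larger share of the Syn libraries and 12 by a larger share of the Allo libraries, and over all regions the numbers were 22477 and 31008.

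Further sites shared by all libraries were chosen for description after their values were seen. They include 3 upstream of Sis. That at -35.7 kb (chr3:73002993-73003908) stood at 89.9, 77.2 and 80.4 in Syn and at 48.5, 77.6, 69.2 and 68.6 in Allo. Allo 2 overlapped Syn, and the difference was -16.5 ± 6.09 points (SE; limma adjusted p = 0.221). At -8.95 kb and -29.8 kb the groups overlapped, with differences of -9.75 ± 6.38 and -2.33 ± 6.23 points (SE; limma adjusted p = 0.5 and 0.903). Inside Treh at 12.3 kb, Syn stood close together at 24.2, 23.1 and 20.3, and Allo stood at 8.08, 37.9, 61.0 and 57.3. The difference there was 18.6 ± 11.3 points (SE; limma adjusted p = 0.461). At -46.5 kb from Enpep (chr3:129378518-129379664), ranks were 54.8, 60.6 and 68.8 in Syn and 64.6, 79.8, 75.7 and 78.1 in Allo. Allo 1 overlapped Syn there (limma adjusted p = 0.262). In Slc5a1, the sites at 31.5 kb and 38.7 kb stood between 64.5 and 80.9 in all 7 libraries, with limma adjusted p-values of 0.98 and 0.696.

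Among the 34 shared regions, limma called 0 higher and 0 lower in Allo after adjustment. Across all 50324 regions it called 0.36% higher and 0.101% lower. At an unadjusted p under 0.05, limma gave 4 of the 34 higher and 7 lower, against 8.53% and 6.88% of all regions. The lowest adjusted p was 0.0646. The median difference of Allo minus Syn over the 34 regions was -2.36 points, against 0.437 over all regions, and 21 of the 34 were negative, against 45.9% of all regions.

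**Figure D3:**
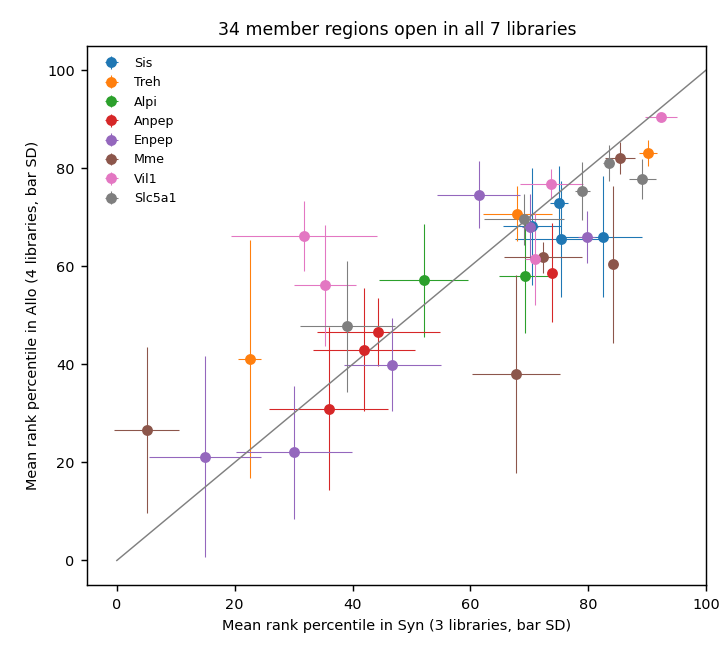
Mean rank percentile in Syn (horizontal axis, 3 libraries) against Allo (vertical axis, 4 libraries) for the 34 shared regions, coloured by gene, with SD bars and the line of equality. 21 of the 34 lie below the line, against 45.9% of all shared regions.

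The groups did not overlap at 2 regions that stood higher in Allo and at 6 that stood lower, against 8.06% and 6.58% of all regions. The Treh and Mme starts are 2 of the lower ones. The sites described at Vil1 and at 63.6 kb, 89.1 kb and 124 kb in or near Mme were chosen after their values were seen.

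At Slc5a1, the best ranked region lies 27.5 kb upstream of the gene (chr5:33076351-33077505). It stood at 90.8, 86.6 and 90.0 in Syn and at 72.8, 81.7, 80.4 and 76.0 in Allo. Every Allo library was lower, by 11.4 ± 2.68 points in the mean (SE), and the exact permutation p of 0.0286 is the smallest 4 against 3 libraries can give. The limma adjusted p was 0.0772. It passed 0.05 when all lists were limited to the shortest length, with a limma adjusted p of 0.030, and when ranks were taken among the shared regions, with 0.021. Ranked by fold, the difference was -8.59 points (limma adjusted p = 0.25). With 50% coverage of the region, with a replicate block and without the variance trend, the limma adjusted p was 0.145, 0.131 and 0.16. With Allo 3 and 4 alone the difference was -10.9 (limma adjusted p = 0.013), and with Allo 1 and 2 alone it was -11.9 (limma adjusted p = 0.127). When single libraries were left out, the limma adjusted p ran from 0.048 (without Allo 2) to 0.316 (without Syn 1), with the same direction each time.

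Inside Vil1, the region at 4.45 kb (chr1:74413612-74414171) stood at 27.1, 45.8 and 22.3 in Syn and at 58.1, 66.8, 75.3 and 64.5 in Allo. Each Allo value exceeded each Syn value, with a mean difference of 34.4 ± 7.57 points (SE), a limma adjusted p of 0.0646 and an exact permutation p of 0.0286. The authors' fold over background of its peaks was 2.34 to 2.86 in Syn and 3.20 to 3.79 in Allo. Ranked by that fold, the difference was 11.8 points (limma adjusted p = 0.233). With a replicate block and without the variance trend, the limma adjusted p was 0.092 and 0.106. The region passed the threshold with lists of equal length (limma adjusted p = 0.022) and with ranks among the shared regions (limma adjusted p = 0.020). It also passed with Allo 3 and 4 alone (limma adjusted p = 0.016), and not with Allo 1 and 2 alone (limma adjusted p = 0.167). Over all regions, limma called 8.68% higher with Allo 3 and 4 alone and 0% with Allo 1 and 2 alone. Leaving out single libraries kept the direction and gave a limma adjusted p of 0.042 (without Allo 1) to 0.261 (without Syn 1). A neighbouring region at 5.93 kb (chr1:74415117-74415590) stood at 37.9, 38.9 and 29.3 in Syn and at 47.0, 45.1, 71.3 and 60.9 in Allo. Its difference was 20.7 ± 7.94 points (SE; limma adjusted p = 0.236), and it was 10.7 with Allo 1 and 2 alone and 30.7 with Allo 3 and 4 alone (limma adjusted p = 0.569 and 0.0199). Ranked by fold it was 6.50. At the Vil1 start the groups overlapped, and at both of these sites inside the gene they did not. Whether the start and these sites differ in this was not tested.

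Upstream of Enpep at 18.9 kb (chr3:129351066-129352056), ranks were 78.4, 79.5 and 81.3 in Syn and 59.9, 69.9, 70.7 and 62.9 in Allo. All Allo libraries were lower, by 13.9 ± 4.34 points in the mean (SE), with a limma adjusted p of 0.16. That p was 0.0452 with Allo 3 and 4 alone and 0.178 with Allo 1 and 2 alone (limma, adjusted). Within Anpep at 10.8 kb (chr7:79837064-79837787), ranks were 73.7, 73.7 and 73.9 in Syn and 53.4, 68.9, 47.3 and 65.3 in Allo. The 3 Syn libraries were nearly equal there while Allo spread widely, and the difference of -15.1 ± 6.04 points (SE) had a limma adjusted p of 0.254.

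Mme had 5 shared regions, 4 with a lower and 1 with a higher mean in Allo. At 63.6 kb, inside the gene (chr3:63359250-63359995), ranks were 85.1, 84.1 and 83.6 in Syn and 45.0, 77.3, 48.5 and 70.8 in Allo. The Allo libraries were all lower, most of all Allo 1 and 3, and the mean difference was -23.9 ± 7.06 points (SE; limma adjusted p = 0.139). The limma adjusted p was 0.0157 with Allo 3 and 4 alone and 0.187 with Allo 1 and 2 alone. Past the end of the gene at 89.1 kb, ranks were 71.4, 72.7 and 59.2 in Syn and 22.1, 63.3, 21.4 and 45.2 in Allo. Here Allo 2 overlapped Syn, and Allo 1 and 3 were again lowest. The difference was -29.8 ± 9.76 points (SE; limma adjusted p = 0.176). The best ranked Mme region, at 116 kb (chr3:63411863-63414004), stood at 88.3, 84.3 and 83.6 in Syn and at 80.8, 84.7, 84.6 and 77.9 in Allo, with overlap (limma adjusted p = 0.551). The region with the higher mean, at 124 kb, stood at 3.35, 0.634 and 11.1 in Syn and at 18.2, 41.2, 6.99 and 40.1 in Allo. Allo 3 overlapped Syn there, and the difference was 21.6 ± 9.86 points (SE; limma adjusted p = 0.317).

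**Figure D4:**
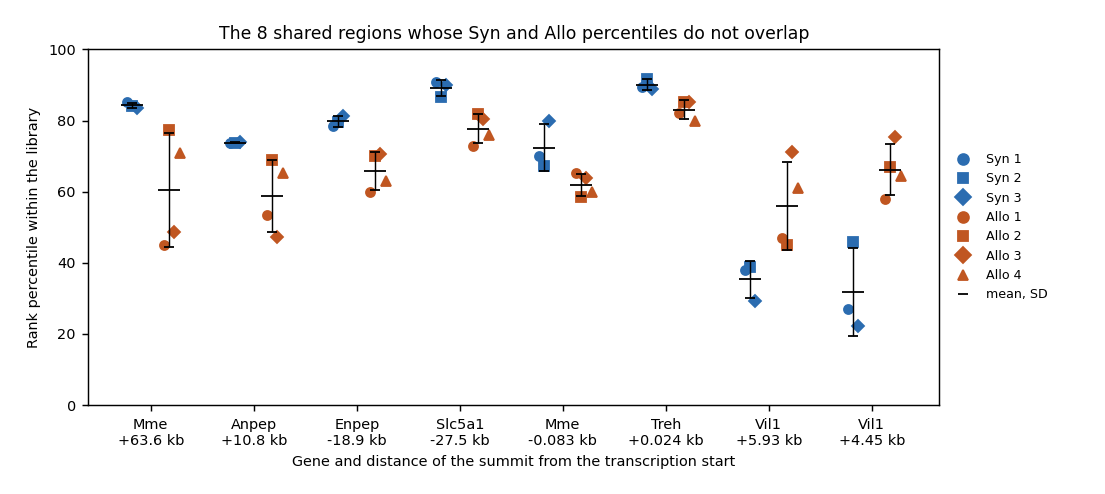
Rank percentile within the library (vertical axis) at the 8 shared regions whose Syn and Allo values do not overlap, one point per library, with mean and SD as bars. The 2 regions of Vil1 stand higher in Allo and the other 6 lower.

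The number of peaks per gene was set against 10000 peaks of the same library. Sis had 4, 4 and 5 peaks in Syn and 5, 6, 6 and 6 in Allo, while for Anpep 5 peaks were listed in all Syn libraries, beside 6, 7, 7 and 6 in the Allo libraries. Mme had 10, 11 and 12 peaks in Syn and 5, 8, 7 and 8 in Allo. Per 10000 peaks, Mme had 1.48 ± 0.0901 in Syn (SD, n = 3) and 0.903 ± 0.133 in Allo (SD, n = 4; exact permutation p = 0.0286). Every Allo library was lower at Mme. With all lists limited to the shortest length the Mme difference was -0.251 and the exact permutation p was 0.114. Sis had 0.584 ± 0.0607 in Syn and 0.748 ± 0.0555 in Allo, and Anpep 0.676 ± 0.0207 and 0.849 ± 0.104 (SD, n = 3 and 4; exact permutation p = 0.0571 for both). Both were higher in every Allo library. With lists of equal length the differences were 0.119 at Sis and 0.0794 at Anpep (exact permutation p = 0.143 and 1), in place of 0.164 and 0.173. With genes assigned within 10 kb they were 0.0470 and 0.10 (exact permutation p = 0.543 and 0.0286). Groups did not overlap for 4.82% of 17298 genes in the higher and 4.73% in the lower direction, beside 3 of the 9 genes. Enpep, Slc5a1, Vil1, Treh, Alpi and Lct had overlapping groups. All 9 genes together had 7.24 ± 0.599 peaks per 10000 in Syn and 6.37 ± 0.648 in Allo (SD, n = 3 and 4).

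**Figure D5:**
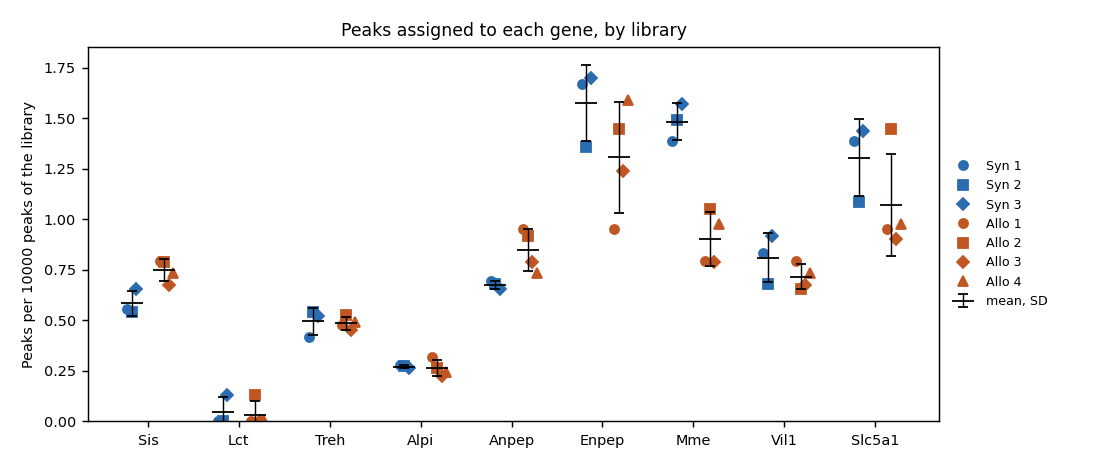
Peaks of each gene per 10000 peaks of the library (vertical axis), one point per library, with mean and SD of each group as bars. Mme is lower in every Allo library, and Sis and Anpep are higher.

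Summits, the authors' point of highest signal in a peak, were compared in the 34 shared regions. Their positions spread over 83 bp at the median, against 71 bp for all shared regions. Groups did not overlap at 2 of the 34, against 5.87% of all regions. At the Enpep start they lay 56.8 bp apart between group means. At the Vil1 start the difference was 241 bp, with Syn 1 and 3 at position 74408863, Syn 2 at 74409219 and all 4 Allo libraries at 74409223. Syn 2 thus lay 4 bp from Allo, and the separation of means rests on Syn 1 and 3.

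Of 35 other brush border genes, with 348 regions, 192 regions (55.2%) were open in all 7 libraries. Of these, limma called 1 (0.521%) higher in Allo and 0 lower after adjustment, beside 0.36% and 0.101% of all shared regions. At an unadjusted p under 0.05, limma gave 15 higher and 16 lower (7.81% and 8.33%), beside 8.53% and 6.88% of all shared regions. The called region lies 49.0 kb from Slc34a2, a phosphate transporter (chr5:52999753-53000899), with 59.6 ± 2.69 in Syn and 84.9 ± 4.72 in Allo (SD, n = 3 and 4), a difference of 25.2 ± 3.98 points (SE; limma adjusted p = 0.0223). No region of the list was called higher when any 1 of Syn 1, Syn 2, Syn 3 or Allo 4 was left out. Over all regions, limma then called 6, 4, 10 and 2 higher in that order, against 181 with all 7 libraries. Of the 348 regions, 2 were open only in Allo and 2 only in Syn, beside 1.14% and 1.01% of all regions, so neither count exceeded the background. The former lie inside Eps8 and Ezr, which encode microvillus proteins, and the latter near Slc10a2, the ileal bile acid transporter. By peaks per gene, groups did not overlap for 3 of the 35 genes, 1 higher and 2 lower in Allo, beside 4.82% and 4.73% of all genes. Slc10a2 had fewer peaks per 10000, at 0.99 ± 0.0503 in Syn and 0.387 ± 0.0947 in Allo (SD, n = 3 and 4; exact permutation p = 0.0286). Enpp3, a surface pyrophosphatase, had 0.541 ± 0.0165 in Syn and 0.701 ± 0.134 in Allo (SD, n = 3 and 4; exact permutation p = 0.0571). The scaffold gene Pdzk1 was lower, at 0.36 ± 0.0779 and 0.192 ± 0.0634 (SD, n = 3 and 4; exact permutation p = 0.0286). The median difference in rank was -2.01 points over 39 shared regions of hydrolases, -0.242 over 50 of transporters and -0.0885 over 103 of scaffold genes, beside 0.437 over all regions.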

How the data were processed

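Accessible chromatin was measured by Omni-ATAC-seq with paired reads of 150 nt. Per the submitters' processing notes, the build was mm10 and the tools included Bowtie2, Trim Galore, MACS2 and MACS3, without versions. The authors deposited 1 peak list per library, called per library. Per peak, the deposited values are a score, a fold over background, a −log10 of the p-value and a −log10 of the q-value, and a summit. The authors' values belong to single peaks and served to rank or select peaks inside 1 list. No source used here gives the calling threshold or read shifting. The weakest peak of each list had a −log10 q of 1.30 to 1.42. Depth is unknown, so no counting interval is given.

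Peaks on chromosomes 1 to 19 and X were merged by an overlap of at least 1 bp and assigned with a RefSeq table of GRCm38.p6, the build of mm10. The best peak per library gave the rank percentile (ties averaged). limma 3.58.1 in R 4.3.3 (lmFit, eBayes with trend) compared regions open in all 7 libraries, and single values were tested by two-sided exact permutation over 35 relabellings. Libraries are independent pools of mice, per the labels' protocols. The start, best ranked, group-specific and called regions of each gene were named, and others are said to be chosen afterwards. Members and lists were chosen with earlier results of these data known. The alternatives tried were lists of equal length, a minimum −log10 q of 5, windows of 200 bp around summits, 50% coverage of a region, genes within 10 kb, other ranks, a logit scale, no trend, a replicate block and leaving out libraries. Not every marker gene examined is reported here.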

Additional observations from a re-analysis of the deposited data

Results flagged for a closer look

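In 25 sets of 4 Allo values, a single library stood apart in 2, where chance gives about 1 in 20 for independent and continuous values. The sets share the same 4 libraries, and peak counts are small and often tied, so that rate is only a rough guide. At Lct, Allo 2 had 0.131 peaks per 10000 peaks, from its 1 peak, and the other Allo libraries had none. At Slc5a1, Allo 2 had 1.45 peaks per 10000, above the other Allo libraries.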

How the results depend on the processing

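Without counts or depth, small differences between lists of different length cannot be resolved, and with 6 libraries the smallest exact permutation p is 0.0667 or 0.1. Of the 9 genes' regions, 0 were open only in Allo and 1 only in Syn, and limma called 0 higher and 0 lower. With windows around summits 1 was open only in Allo, and with a −log10 q of at least 5, 0 only in Syn. Over all regions these shares were 1.12% and 1.01%. With lists of equal length, and with ranks among shared regions, 1 was called higher and 1 lower, beside 0.931% and 0.810% of all regions for equal lists and 1.33% and 1.57% for shared ranks. Without Allo 1 and 2, 4 were open only in Allo, 4 only in Syn, 3 were called higher and 6 lower, beside 6.90%, 2.21%, 8.68% and 3.46% of all regions. Without Allo 3 and 4, 1 was open only in Allo and 2 only in Syn, beside 1.75% and 3.07%. Leaving out single libraries gave 0 to 2 open only in Allo (2 without Allo 1), 1 to 4 only in Syn (4 without Allo 2, 3 without Syn 2), and 0 to 1 called in either direction. Over all regions, leaving out single libraries gave 1.33% to 2.37% open only in Allo and 1.05% to 1.98% only in Syn. The shares called were 0.00394% to 0.865% higher and 0% to 0.643% lower. The causes were not tested.

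For the other brush border genes (2, 2, 1 and 0 in the same order), a −log10 q of at least 5 gave 4 open only in Allo and lists of equal length 0. Over all regions these shares were 1.12% and 1.16%. A coverage of 50% gave 5 open only in Syn and 0 called higher, and 10 kb gave 1 and 0. Over all regions, that coverage gave 1.43% open only in Syn and 0% called higher, and 10 kb gave 1.01% and 0.36%. Ranks by fold gave 0 called higher, and ranks among shared regions 2 higher and 2 lower. Of all regions, ranks by fold called 0.0358% higher, and ranks among shared regions 1.33% higher and 1.57% lower. Without Allo 1 and 2 the 4 counts were 8, 9, 14 and 12, and without Allo 3 and 4 they were 5, 5, 0 and 0, beside the same shares of all regions as above (0 called in either direction without Allo 3 and 4). Leaving out single libraries gave 2 to 4, 2 to 7, 0 to 2 and 0 to 1, beside the ranges given above for all regions.

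Of the 9 genes, 3 had groups of peaks per 10000 that did not overlap, against 1 with a −log10 q of at least 5, 0 with equal lists, 5 without Allo 1 and 2, and 3 to 5 leaving out single libraries. The share of all genes is given only for whole lists of all 7 libraries, 4.82% higher and 4.73% lower. Groups of fewer libraries separate more easily, so these counts are not a result about the 9 genes. Some directions turned, and not only those near 0. Peaks per 10000 differed by 0.0221 at Lct, 0.00657 at Treh and 0.0198 at Alpi without Allo 3 and 4. Leaving out single libraries, differences ran from -0.0436 to 0.0329 at Lct, -0.0477 to 0.0152 at Treh, -0.0262 to 0.00465 at Alpi and -11 to 0.986 at the Anpep start (rank points). Ranked by fold, the Enpep start differed by 2.71, the Mme start by 0.192 and the Mme site at 116 kb by 2.36. The Anpep start differed by 8.85 without Allo 1 and 2. Correlations were 0.0755, -0.0333 and 0.0742 for the shared replicate numbers, and -0.0926 to 0.0376 for unlike numbers. Values this small and few cannot show whether the numbers pair the libraries. With the replicate block, limma called 0 higher and 0 lower of the 9 genes' regions, 1 and 0 of the others, and 106 and 56 of all regions against 181 and 51. The block put Lct at 0.000199.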
